A study of Mus musculus with 12 samples.

Results

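Small RNA of mouse blood progenitors, developing T cells and fibroblasts was sequenced and assigned by the authors to known microRNA names. Among those names are 6 whose reads may come from other RNA: mmu-miR-2142, mmu-miR-1937b, mmu-miR-690, mmu-miR-709, mmu-mir-1895 and mmu-mir-1928, written below without the species prefix. They were taken as a fixed list of names, counting any arm, and are 6 of the 423 names with reads in the deposited tables. The list was chosen by the level, length, position and strand of these names' reads in these same libraries, so the values below describe the names and were not tested.

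The study sampled C57BL/6 mice and made 1 library for each of 12 populations, with no replicate. From bone marrow came LSK cells (Lineage-, Sca+, cKit+), MPP cells (LSK that are CD135+ CD106+), LMPP cells (LSK that are CD135+ CD106-) and ProB cells (B220+, IgM-, CD43hi). From thymus came the CD4- CD8- stages DN1 (CD44+ CD25-), DN2 (CD44+ CD25+), DN3 (CD44- CD25+) and DN4 (CD44- CD25-, CD3lo), then DP (CD4+ CD8+), CD4SP and CD8SP cells. DN1 was also sorted as CD3- CD90+, DP as CD3lo CD90+, and both SP populations as CD3hi CD90+ CD24lo. MEF, embryonic fibroblasts of E14.5 embryos, are the population outside blood. RNA of 19 to 24 nt was cut from a gel, and the ligation took only molecules that bear a phosphate at the 5′ end and a hydroxyl at the 3′ end.

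A microRNA is cut by Drosha and Dicer from a hairpin precursor, so its reads share a sharply fixed 5′ end and the mature sequence. Other abundant RNAs also leave short pieces. 5S rRNA, the small RNA of the large ribosomal subunit, is made by RNA polymerase III, which stops in a run of T. A tRNA receives the bases CCA at its 3′ end after transcription, and its gene holds an internal promoter element called box A near the start of the tRNA. B1 and B2 are short interspersed repeats that are copied all over the mouse genome, B2 being descended from a tRNA.

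The sequences were the first thing that set the 6 names apart. Each is printed in lower case, with the part named beside it in capitals. The bulk of the miR-2142 reads ran into the end of 5S rRNA. In the 3 reads shown the capitals mark the bases past the annotated 3′ end of 5S rRNA (GENCODE M21, GRCm38).
miR-2142 in LMPP, 2747 reads: ataccgggtgctgtaggctTT
miR-2142 in LMPP, 2072 reads: ggaataccgggtgctgtaggctTT
miR-2142 in DN4, 186 reads: gggaataccgggtgctgtaggctTT

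The miR-1937b reads carried a 3′ CCA, in capitals in the first 4 lines. The last 2 lines show, in capitals, a base at which reads of this name differed.
miR-1937b in DN3, 446 reads: tcaaatcccggacgagcccCCA
miR-1937b in DP, 427 reads: caaatcccggacgagcccCCA
miR-1937b in DN2, 556 reads: aaatcccggacgagcccCCA
miR-1937b in DN3, 5381 reads: atcccggacgagcccCCA
miR-1937b in DN3, 822 reads: tcaTatcccggacgagccccca
miR-1937b in DN3, 518 reads: tcaGatcccggacgagccccca

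The miR-1928 reads held a run, in capitals, that resembles box A; it is the first 11 bases of the 22-nt read. They are shown with the miR-1928 hairpin, on which the stretch opposite to the commonest reads is in capitals, and with its mature sequence, on which the seed (bases 2 to 8) is in capitals. Both reference sequences are RefSeq's on GRCm38.p6.
miR-1928 in DN3, 1341 reads: tgTAGCTCAGTGGtagagcgcgtg
miR-1928 in LMPP, 163 reads: TAGCTCAGTGGtagagcgcgtg
miR-1928 in DN4, 38 reads: gggatgTAGCTCAGTGGtagagc
mir-1928 hairpin: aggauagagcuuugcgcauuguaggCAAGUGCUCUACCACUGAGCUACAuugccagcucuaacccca
mmu-miR-1928: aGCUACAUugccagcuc

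The commonest reads of the remaining names follow, with the RefSeq hairpins of miR-690 and miR-1895, where capitals mark the stretch under the commonest reads, and their mature sequences with the seed in capitals. RefSeq sequences on GRCm38.p6 were used for 3 of the 6 names. Their 3 seeds all differ.
miR-690 in DP, 326 reads: ggctggagagatggctca
mir-690 hairpin: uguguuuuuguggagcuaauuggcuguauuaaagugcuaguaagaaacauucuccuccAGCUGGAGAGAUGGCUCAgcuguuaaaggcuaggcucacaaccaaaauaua
mmu-miR-690: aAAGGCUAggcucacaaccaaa
miR-1895 in DN1, 259 reads: gaggaggaggaggaggaggaggag
mir-1895 hairpin: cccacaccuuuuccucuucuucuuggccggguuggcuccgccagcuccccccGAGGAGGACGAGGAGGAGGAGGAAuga
mmu-miR-1895: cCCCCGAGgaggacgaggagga
miR-709 in all libraries, 26 reads: gaggcagaggcaggagga

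The 3 hairpins lie in different settings. The miR-1928 hairpin, at chr1:74206554-74206620 on the minus strand, overlaps no other gene of GENCODE M21. The miR-690 hairpin, at chr16:28599935-28600043 on the minus strand, is in an intron of Fgf12, on the same strand. The miR-1895 hairpin, at chr3:134240505-134240583 on the minus strand, lies opposite to coding sequence of Cxxc4 and inside an exon of the antisense gene Gm26691.

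The libraries differed in ways that touch all 6 names. Totals of both tables ran from 74856 reads in DN4 to 4984351 in DN3, and 3 reads were worth 40.1 RPM in DN4 but 0.602 in DN3. Reads of mature microRNAs began at base 1 of the listed sequence in DN3, at base 2 in MEF, DN4 and DP, and at base 3 in the other 8 libraries. Between 96.3% and 98.8% of a library's mature-table reads began at its own base. The shortest listed read was 18 nt in each library. The CD8SP tables were used by the names they hold, which is the reverse of their titles, and for CD4SP only the mature table was used. Marker microRNAs set blood and fibroblasts apart as labelled: miR-142, found throughout blood, summed to between 7978 and 80435 RPM in the 10 blood libraries with both tables and to 155 in MEF, where the 5 mesenchymal names reached 24761.

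Together the 6 names took up a very uneven share of the libraries. A level here is the number of reads per 1000000 assigned reads of both tables (RPM), with a read that fits several names divided equally among them, and an exact 95% Poisson interval that covers counting error only. The summed level was 27460 RPM (interval 27159 to 27764) in LMPP and 18170 (17215 to 19160) in DN4. It was 3274 in DP, 2672 in DN3 and 2096 in MEF. The other 6 libraries lay between 271 in LSK and 639 in ProB. In such bulk samples, more cells holding an RNA and more of it per cell cannot be told apart. In LMPP 2.75% of all assigned reads carried 1 of the 6 names, and in LSK 0.0271%.

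**Figure D1:**
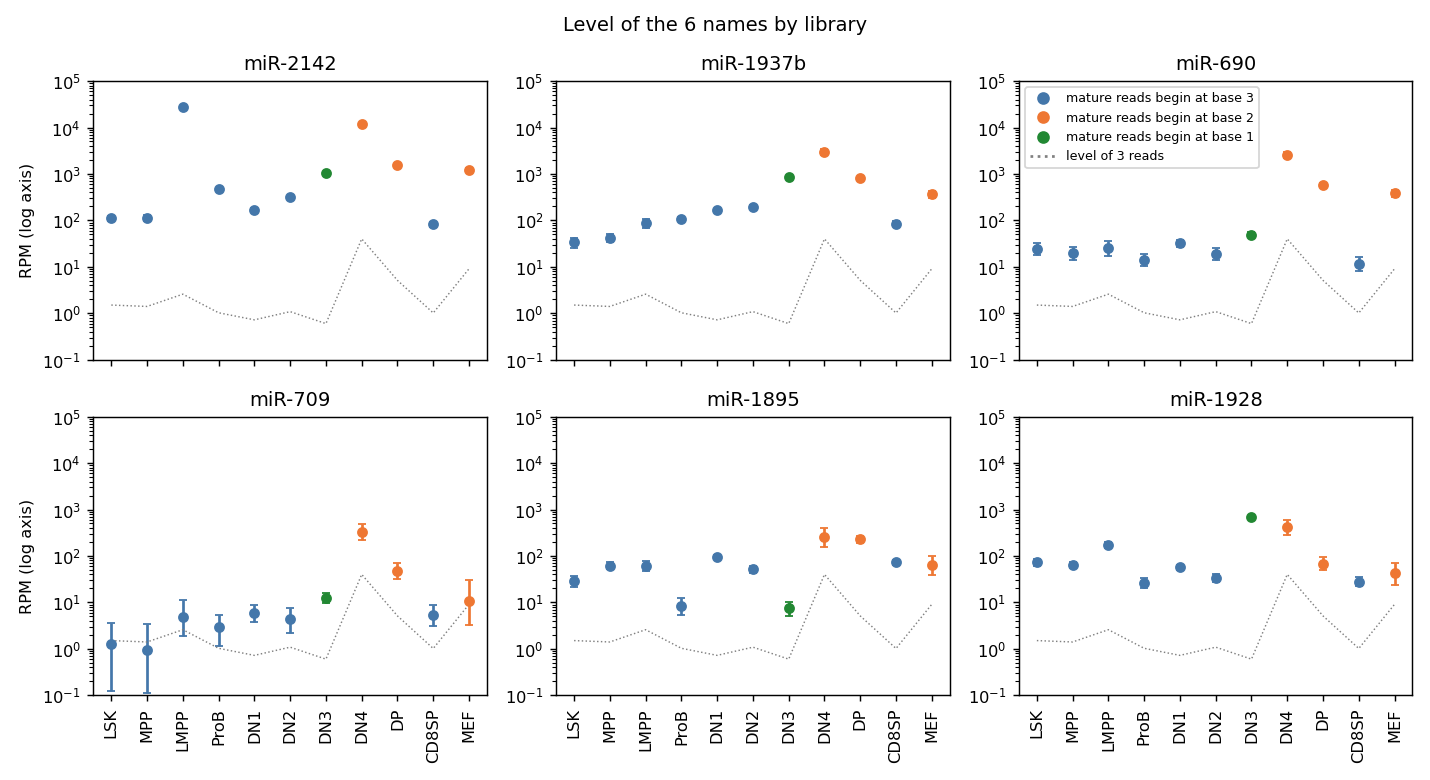
Level of each of the 6 names in the 11 libraries with both tables, in RPM on a log axis, with 95% Poisson intervals as bars. Colours give the base at which a library's mature reads begin, and the dotted line is the level of 3 reads; miR-2142 stood at 27109 in LMPP, while 4 of the 6 names were highest in DN4.

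miR-2142, the name whose reads lie in 5S rRNA, was the most abundant of the 6. Its level was highest in LMPP, at 27109 RPM, and then in DN4, at 11656. DP had 1546, MEF 1223 and DN3 1031. ProB had 479, DN2 321, DN1 169, MPP 114, LSK 111 and CD8SP 82.5. LMPP and DN4 thus stood far above the rest, and LSK and MPP, next to each other in the order, did not differ beyond counting error. LMPP was 239 times MPP (interval 210 to 272), and ProB was 56.6 times lower than LMPP (53.6 to 59.7). In CD4SP, with the mature table alone, miR-2142 had 10.2 RPM, beside 11.7 in CD8SP counted in the same way.

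The LMPP library also held more of some markers of other cells. The liver microRNA miR-122 summed to 3728 RPM there, against 1071 in LSK and 1115 in MPP. All 5 mesenchymal names had reads in LMPP and summed to 1005, against 194 in MPP, where 1 of the 5 was at 0. The 3 erythroid names summed to 4833 in LMPP and 1588 in MPP, but to 5247 in DN3, which had 1031 RPM of miR-2142. The part of these differences in the miR-2142 level was not tested. DN4, second for miR-2142, had 13.4 RPM of miR-122 and 4 of the 5 mesenchymal names at 0. At its depth 3 reads are worth 40.1 RPM, so names at low levels can be missed there.

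The match to 5S rRNA was close. Of the miR-2142 reads, 17.4% lay letter for letter inside an annotated rRNA, and a further 66.4% did so up to the annotated end and then ran 1 to 3 bases beyond it, 83.8% in all. The allowance for 3 bases was set after the ends had been seen. Exactly inside any annotated RNA that is no microRNA were 41% of the reads, because many of those with 1 T past the end also occur in transcripts of Tmem38b. Of 201 names with at least 1000 reads, miR-2142 alone had more than 50% of its reads in rRNA, and the median name had 0. The last 23 bases before that annotated end are shared by 56 annotated rRNA genes, and reads cannot be assigned to 1 of these copies.

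The share in 5S rRNA was high in every library. It was lowest in LSK, at 67.3% of 220 reads (exact binomial interval 60.6 to 73.4), and highest among the libraries with both tables in MEF, at 90.6% of 403 reads (87.3 to 93.2). In LMPP it was 84.3% of 31374 reads (83.9 to 84.7) and in DN4 90.5% of 872 (88.5 to 92.5). The 2 libraries with the most miR-2142 thus lay within the range of the others in this share.

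The 5′ ends of these reads were scattered, and the 3′ ends were about as clustered as those of other names. Of the miR-2142 reads listed under hairpins, 7.4% stopped at the annotated 5S end, 26.7% had 1 T past it, 37.8% had 2 T and 0.665% had 3. Ends with 3 T made up 0.0401% of reads in LMPP and between 1.86% in DN4 and 13.7% in CD8SP in the other 10 libraries. The commonest end fell at hairpin position 79 in all 11 libraries, with between 27.8% of reads in CD8SP and 62.1% in ProB. The commonest start took 18.2% of the reads over all libraries, against a median of 65.7% for the 119 names with at least 1000 hairpin-table reads. The commonest end of miR-2142 took 42%, against a median of 50.1% for the same names (quartiles 38.3% and 63.4%).

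**Figure D2:**
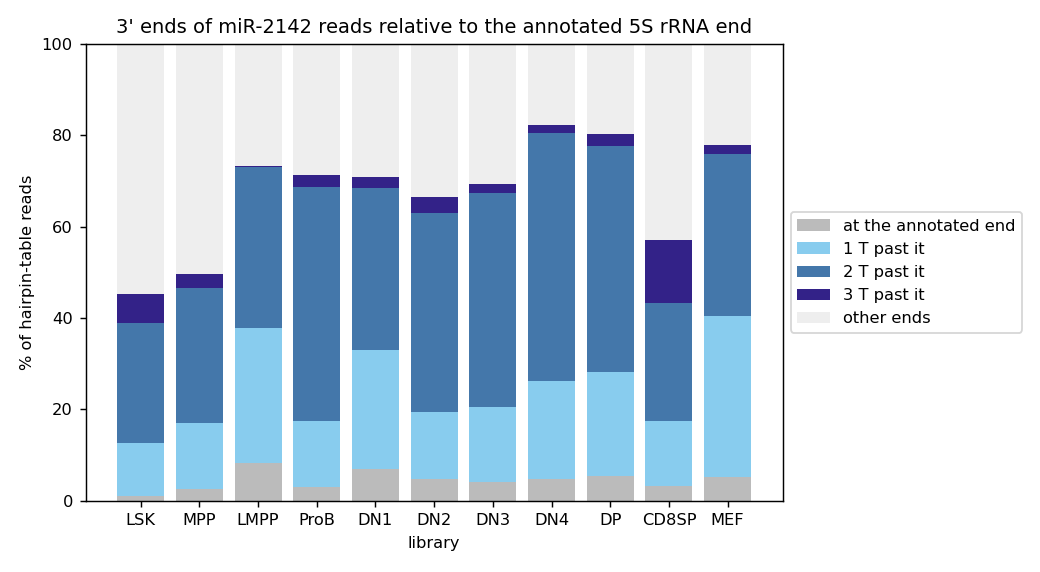
Percent of miR-2142 hairpin-table reads in each library that stop at the annotated 3′ end of 5S rRNA or 1, 2 or 3 T past it; the pale part holds all other ends. Of the 4 marked classes, ends with 2 T were the largest in each library, from 25.9% in CD8SP to 54.3% in DN4, and MEF had nearly as many with 1 T (35.1%) as with 2 T (35.6%).

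Start and length of miR-2142 differed between groups of libraries. In DN4, DP and MEF the commonest start was hairpin position 55, with 37.3%, 37.4% and 34% of reads, and the median read was 25 nt long. It was position 56 in MPP, ProB, DN1 and DN2, the base after. Reads of mature microRNAs begin at base 2 in DN4, DP and MEF, and at base 3 in these, also the base after. They begin at base 3 in LMPP, CD8SP and LSK too, whose commonest miR-2142 starts were others. LMPP reads most often began at 59 (20.6%), CD8SP reads at 63 (32.1%), DN3 reads at 60 (13.6%) and LSK reads at 54 (17.6%). Reads longer than 24 nt, the upper bound of the gel cut, made up 69.9% of miR-2142 in DN4 and 21.2% in CD8SP. At 37.7%, the share of reads of 21 to 23 nt, the usual microRNA length, was under the median name's 64.2%.

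miR-1937b, whose reads end like a tRNA, was lowest in LSK and MPP, at 33.6 and 42.1 RPM. It was highest in DN4, at 2957, with 878 in DN3, 799 in DP and 367 in MEF. DN2 had 198, DN1 164, ProB 108, LMPP 86.8 and CD8SP 85.3. DN4 was 3.36 times DN3 (interval 2.92 to 3.85), while DN3 and DP did not differ beyond counting error. Of its 14549 reads, 14528 were also listed under miR-1937a, so that the level printed is close to 50% of what the 2 names hold together, and the names cannot be told apart.

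Most of these reads closed with CCA. That was true of 92.6% of miR-1937b reads over all libraries and of at least 86.1%, the value in LMPP, in each. In the hairpin tables, 3 of 119 names had CCA at the end of more than 50% of reads: miR-1937b at 88.3%, miR-1937a at 86.3% and miR-1939 at 98.3%. The median name had 0.0167%. The sequence is known as the 3′ end of tRNA-Pro, with the CCA that the tRNA gene does not encode. No tRNA sequence was used here, and the exact matches, 42.1% of reads, were nearly all of the 18-nt read to the pseudogene Gm15280.

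Read length of miR-1937b followed the library's own start. Among reads ending in CCA, 20 nt was the commonest length in the 7 libraries with both tables whose mature reads begin at base 3, with 89% in LSK to 94.9% in DN1. Where mature reads begin at base 2, it was 21 nt, with 67.1% in DN4, 71.5% in DP and 65.1% in MEF. DN3, which begins at base 1, had 22 nt for 23.3% and 18 nt for 74.6%. In CD4SP, which begins at base 3 but has the mature table alone here, all 86 CCA reads had 18 nt. The commonest hairpin position was 28, 27 and 26 in the 3 groups, while the 3′ CCA stayed in place. The 3 longest CCA reads printed above therefore lose 1 base at a time from the 5′ side.

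**Figure D3:**
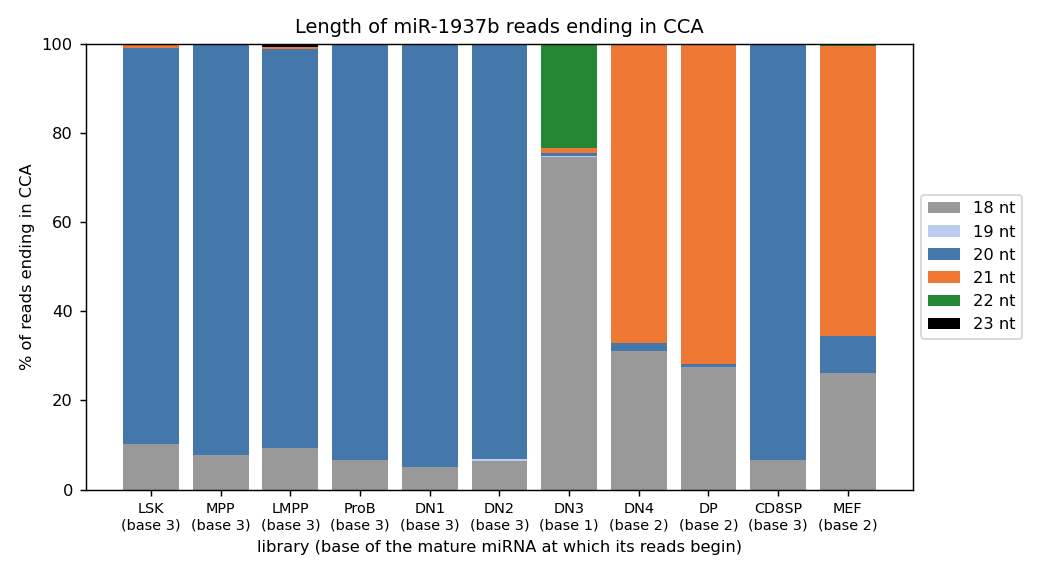
Percent of miR-1937b reads ending in CCA that have each length, by library, with the base at which the library's mature reads begin in brackets. The main length is 20 nt at base 3, 21 nt at base 2 and, beside 18-nt reads, 22 nt at base 1 in DN3, which has 23.3% at 22 nt.

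Among the libraries with both tables, the 18-nt read set DN3 apart by its share of CCA reads. That share was 74.6% in DN3, 31.2% in DN4, 27.6% in DP and 26.2% in MEF. The counts that follow are not divided by depth. DN4 had 74856 reads in total and DN3 4984351. DN3 held 5911 CCA reads of 18 nt, against 241 in DP, 129 in DN4, 60 in MEF and 12 to 69 in each of the 7 libraries with both tables that begin at base 3. It was the read that put miR-1937b into the mature table: in DN3 the mature table gave 3034 of the 4378 reads counted. In mature tables alone the level was highest in DN4, at 1049 RPM, and DP had 224. It was 663 RPM in DN3 and 14.9 in DN2, a wider gap than the 878 and 198 of both tables. Since no read under 18 nt is listed, a piece of 18 nt that had lost 2 bases could not appear, and the bearing of this on the gap was not tested.

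A single base of the miR-1937b reads varied. Counted back from the 3′ end, the 19th base was A in 52.8% of reads, T in 30.3%, G in 15.9% and C in 0.971%, over 6491 reads with the common 17-base end. The bases on either side were A in 99.6% and 99.5%. In 10 libraries A made up between 59.3% in CD8SP and 76.4% in MEF. In DN3, with 1954 such reads, A stood at 25.5% and T was the commonest base at 44.7%. At this place in the T loop many tRNAs carry 1-methyladenosine, which is known to be misread by reverse transcriptase; its part in these letters was not tested.

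miR-1928 read as the start of another tRNA, on the opposite strand. Of its 4699 reads, 4696 matched the reverse complement of the hairpin better than the hairpin itself. Reads of the other 5 names lay in the sense direction. Only 0.277% of miR-1928 reads fitted the hairpin without a mismatch and 96.7% had 2 or more. On the hairpin strand, with positions counted from its 5′ end, the commonest reads carried A28C and T30C. The box A run TAGCTCAGTGG stood in 97.5% of miR-1928 reads, searched on the read's own strand, and no other of 119 names held it in more than 50%. The sequence is that of the 5′ part of tRNA-Ala as known from textbooks, and 93.1% of reads had no exact match in an annotated transcript.

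With shared sequences divided among names, miR-1928 was highest in DN3 and DN4. Its level was 693 RPM in DN3 and 419 in DN4, and LMPP came next at 173. LSK had 72.7, DP 67.8, MPP 64.3 and DN1 57.6. MEF had 42, DN2 34.1, CD8SP 28 and ProB 26.3. DN3 was 20.3 times DN2 (interval 16.6 to 25.2). The low libraries, from LSK down to ProB in the order of levels, ran into each other: no neighbours among them differed beyond counting error.

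A different piece of miR-1928 was read in different libraries. In the 7 libraries with both tables that begin at base 3, between 61.1% of reads in CD8SP and 86.8% in LMPP ended in GCGCGTG, mostly as a 22-nt read. DN3 ended so in 90.8%, with 1351 reads of 24 nt, 1290 of 23 nt and 558 of 22 nt. In DN4, DP and MEF this end made up 6.78%, 6.76% and 11.1% of reads. There, 81.4%, 79.7% and 85.2% began instead with 3 or 4 G followed by ATGTAGC. That start was seen in 4.26% of DN3 reads and in at most 0.676% in the base 3 libraries. The same piece begun 1 base later would hold 1 G fewer and could be missed by this count. Whether the base 3 libraries hold that piece was therefore not tested. The DN3 and DN4 levels of this name thus count mostly reads with different ends.

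miR-690 was read from a stretch that also lies in many other genes. The mature arm of miR-690 was nearly absent, with 18 reads in the mature tables against 1560 in the hairpin tables. In 93.9% of all its reads stood the run GAGATGGCTCA, which is part of the B2 repeat as known from mouse; no repeat annotation was used here. The printed 18-nt read occurs in 886 of 53147 annotated genes, in sense in 425 and in antisense in 472. It differs from the hairpin by A59G, counted from the hairpin's 5′ end, and 5.51% of hairpin-table reads fitted without a mismatch.

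The level of miR-690 split the libraries by the start of their reads. It was 2552 RPM in DN4, 582 in DP and 389 in MEF, the 3 libraries that begin at base 2. In DN3 it was 48.9. In the 7 others it lay between 11.6 in CD8SP and 32 in DN1, with 25.9 in LMPP, 24 in LSK, 19.7 in MPP, 19.2 in DN2 and 14.2 in ProB. No neighbours in the order from DN1 down to CD8SP differed beyond counting error. DN4 was 52.1 times DN3 (interval 42.9 to 63.2), and CD8SP was 50.1 times lower than DP (35.2 to 73.5).

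The printed 18-nt read made up 49% of miR-690 reads in DN4, 64.7% in DP and 65.3% in MEF, or 575 of the 579 copies in all libraries. Without it, a count added after the levels were seen, the level of miR-690 was 1717 RPM in DN4, 303 in DP and 200 RPM in MEF, still above the 48.6 of DN3 and the 7 others. The 18-nt read begins at hairpin position 59. Reads of libraries that begin at base 3 started most often at 64 or 60, and those of DN3 at 62, where they were 23 nt long most often. A read of 18 nt in a base 2 library would have 17 nt in a base 3 library and fall under the shortest length listed. The base at which a library begins moves together with the level of miR-690, while the length bound is the same in each library. The part of either in that level was not tested.

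miR-709 had few reads. Its 208 reads, 194 after division, gave 334 RPM in DN4 (interval 216 to 493) and 47.8 in DP. It was 12.5 in DN3, 10.6 in MEF and 5.93 in DN1, with 5.46 in CD8SP, 4.75 in LMPP, 4.35 in DN2, 2.91 in ProB, 1.26 in LSK and 0.938 in MPP. MPP rested on 2 reads and MEF on 3.5, so that among the 9 libraries below DP no neighbours in the order differed beyond counting error. The sequence resembles the B1 repeat. Of its reads, 73.7% lay in at least 5 annotated genes, and the printed read in 147. In CD4SP the mature table gave 4 reads of miR-709 (0.889 RPM), 3 of miR-690 (0.667 RPM) and 44 of miR-1937b (9.78 RPM), beside 1.5, 0.376 and 6.2 RPM in the CD8SP mature table.

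miR-1895 was a plain repeat. In 93.5% of its 1244 reads nothing stood but GGA repeated, and the printed 24-nt read lies in 172 annotated genes. No read fitted the hairpin without a mismatch, and the commonest carried C61G and A76G, counted from the hairpin's 5′ end. No folding was computed for this repeat, so the label of a structured RNA was not tested, and the name is described by its sequence alone. All reads of miR-1895 and miR-1928 were in the hairpin tables, which leaves no value for CD4SP.

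The level of miR-1895 ran differently from the other names. It was 254 RPM in DN4 (interval 153 to 396, from 19 reads) and 231 in DP, which did not differ beyond counting error. DN1 followed at 95.4, then CD8SP at 73.3, MEF at 63.8, MPP at 61.4 and LMPP at 60.5. DN2 had 51.2 and LSK 28.8. ProB, at 8.2, and DN3, at 7.42, were lowest. The length also differed: 24-nt pure repeats made up between 50.9% and 70.2% of reads in the 8 libraries that begin at base 3 or base 1 and have both tables, but 10.5% in DN4, 2.22% in DP and 0 of 21 reads in MEF, where 3 reads, the limit used for a count of 0, would be 14.3%.

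The matches thus separated the names. In at least 5 annotated genes that are neither microRNA nor rRNA lay 98% of miR-1895 reads, 76.3% of miR-690 reads and 73.7% of miR-709 reads. The median over 201 names was 0, and 4 of them passed 50%: miR-1895, miR-690, miR-574 and miR-1934. miR-709 has too few reads to be among the 201. For miR-2142, miR-1937b and miR-1928 the share was 0, 0.0137% and 1.94%.

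**Figure D4:**
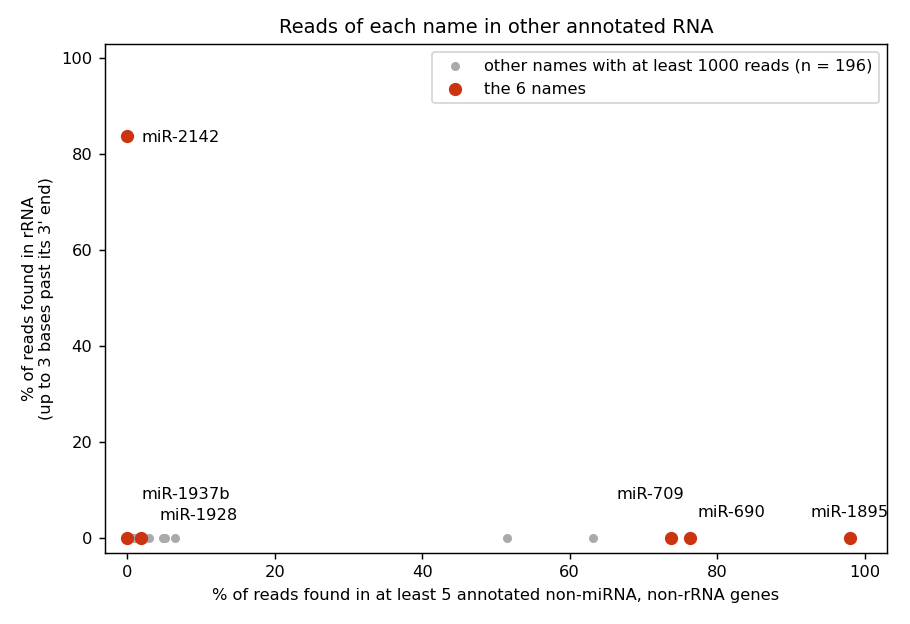
For each name, the percent of reads found in at least 5 annotated genes that are neither microRNA nor rRNA (horizontal) and in rRNA with up to 3 bases past its end (vertical). Grey points are 196 other names with at least 1000 reads; miR-2142 stands alone at 83.8% in rRNA and miR-1895, miR-690 and miR-709 lie at 98%, 76.3% and 73.7% on the horizontal axis.

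Between neighbouring populations, a name was called different when the whole 95% interval of its ratio lay beyond 2-fold and its higher level was at least 100 RPM and 10 reads. With 1 library each, such a call compares 2 libraries, not the populations. It was made 24 times in 34 evaluations of the 6 names over 11 comparisons. From LSK to MPP, where 2.99% of 134 names were called, 0 of 1 member evaluated was. From MPP to LMPP both members evaluated, miR-2142 and miR-1928, were called higher, against 21.9% of 155 names. From LMPP to ProB, with 44.7% of 161 names called, and from LMPP to DN1, with 46.9% of 160, the same 2 members were called lower and miR-1937b was not called. Scaling by TMM or by size factors, explained below, ended the calls of miR-1928 from MPP to LMPP (ratios of 2.22 and 1.97) and from LMPP to DN1 (0.481 and 0.552), as did hairpin tables alone (1.89 and 0.564). From LMPP to DN1 both scalings also called miR-1937b higher in DN1, at ratios of 2.74 and 3.14, and size factors also called miR-1895 higher.

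The steps around DN4 moved a large part of all names, and the members with them. From DN1 to DN2, where 35.4% of 130 names were called, 0 of 2 members were. From DN2 to DN3, 47.7% of 155 names and 3 of 3 members, miR-2142, miR-1937b and miR-1928, were called, the members all higher. From DN3 to DN4, 66.7% of 183 names were called, and 5 of 6 members were called higher. miR-1928 was not, at a DN4 level 1.67 times lower (interval 1.18 to 2.47). That ratio of DN4 to DN3, 0.597, depended on the counting: it was 1.11 with shared sequences counted in full, 0.138 with sequences of 1 name only and 0.322 on hairpin tables alone, and the last 2 were called lower. From DN4 to DP, with 58.0% of 150 names called, 5 of 6 members were called lower, and miR-1895, at a ratio of 0.909 (0.56 to 1.56), was not. In DN4, 65 of the 266 names that reach 100 RPM in some library had their highest level, so a peak there is common among all names.

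Scaling decided the step out of DN4. TMM (edgeR) and size factors (DESeq2) estimate a library's scale from the bulk of its names in place of its total. They moved every ratio of DP to DN4 upward by 2.04 or 1.46 on the log2 scale. Under TMM 1 member, miR-1895, was then called, and higher in DP; under size factors miR-2142 was the 1 member called, lower in DP. From DN3 to DN4, which those scalings moved by -1.23 and -0.66, miR-2142, miR-690, miR-709 and miR-1895 were called higher with all 3 scalings, and miR-1937b with the total alone. Under TMM miR-1928 was also called, and lower.

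The remaining comparisons differed in how many members were called. From DP to CD8SP, where 77.7% of 148 names were called, 4 of 4 members were called lower: miR-2142, miR-1937b, miR-690 and miR-1895. From MEF to DP, with 72.3% of 191 names called, 1 of 4 members was called, miR-1895, with a level 3.62 times higher in DP (interval 2.27 to 6.04); under TMM, which moved this ratio by 1.76 on the log2 scale, 5 of 5 evaluated were. Between CD4SP and CD8SP, compared on mature tables with 13.2% of 114 names called, no member reached the minimum level.

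Of the 18 places held by the names whose levels ran most like the members', 9 went to names listed as possibly from structured RNA or repeats, which hold 21 of the 265 places open. That list was chosen with earlier results of these data known. miR-1937a is counted for both miR-1937b and miR-709, so these counts are a description only. Over 11 libraries, and among 265 other names reaching 100 RPM, miR-2142 was closest to miR-2140 (Spearman's rho 0.955), miR-714 (0.918) and miR-2145 (0.891). miR-1937b was closest to miR-1937a (0.991), with which it shares reads, then to miR-1935 (0.982) and miR-1274a (0.945). miR-690 was closest to miR-1944 (0.955), miR-190 (0.921) and miR-2132 (0.9). For miR-709 the closest were miR-1957 (0.936), miR-185 (0.882) and miR-1937a (0.882). miR-1895 was closest to miR-22 (0.845), miR-149 (0.836) and miR-2143 (0.709), and miR-1928 to miR-874 (0.827), miR-140 (0.818) and miR-181c (0.764). These values describe 11 libraries that also differ in depth and in the start of their reads.

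Among themselves the 6 names did not form 1 pattern. The rank correlation was 0.873 for miR-1937b with miR-709 and 0.782 for miR-690 with miR-709. It was 0.0273 for miR-1895 with miR-1928 and 0.2 for miR-1895 with miR-2142. Of the 35 names on that further list, 29 had reads and 21 reached 100 RPM. DN4 held the highest level of 18 of these 21, LMPP of miR-2140 (1131 RPM), DN3 of miR-720 (208) and DP of miR-1944 (391). The same held for 4 of the 6 members, DN4 being highest for miR-1937b, miR-690, miR-709 and miR-1895. Of all 266 names reaching 100 RPM, 65 were highest in DN4. The order of DN4 and DP depended on the scaling. Ratios of DP to DN4 for miR-1937b and miR-1895 were 1.11 and 3.73 under TMM, and 0.743 and 2.49 under size factors. Those of miR-690 were 0.933 and 0.625 and those of miR-709 were 0.587 and 0.393. All lay below 1, but neither name was called under either scaling.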

How the data were processed

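The members and gene lists were chosen with earlier results of these data known. Each library has, per the file headers, tables of sequence, length, position and the count of total reads; per the titles of the deposited tables, sequences left after mapping to mature microRNAs were mapped to hairpins. Aligner, mismatch limit and build: not given in the sources used here. Each distinct sequence was counted once per table, shared ones were divided among names, and counts were divided by the total of both tables; with 1 library per population no p-value was computed. Intervals are exact Poisson for levels, exact Clopper-Pearson for shares above 0 (a count of 0 has a limit of 3 counts) and conditional binomial for ratios, all at 95% and for counting error only. Sequences were searched, exactly and on both strands, in GENCODE M21 transcripts (GRCm38). Strand was read from the agreement of overlapping reads and, for 3 names, from the RefSeq hairpin. The named microRNAs are the 6 members and, for each, the 3 names of highest Spearman's rho. The search and the call rule were tested on simulated data. Alternatives included edgeR 4.0.16 TMM and DESeq2 1.42.0 size factors. Python 3.11.15 with scipy 1.17.1 was used.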

Additional observations from a re-analysis of the deposited data

How the results depend on the processing

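No paired analysis was possible because each population has 1 library. The summed level of the 6 names moved with the denominator and the tables. With mature reads as the denominator it was 301 RPM in LSK, 32454 in LMPP and 21458 in DN4. With shared sequences counted in full it was 308 in LSK and 22376 in DN4, with sequences of 1 name only 235 and 14014. Without sequences read once it was 206 in LSK, 26359 in LMPP and 16731 in DN4. Mature tables alone gave 12.9, 1514 and 2311, and hairpin tables alone 2602, 170110 and 105812, so that DN4 led on mature tables and LMPP on the others. Perfect matches alone cut miR-690, miR-1895 and miR-1928 together from 750 to 3.41 in DN3 and from 3224 to 60.1 in DN4.

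The 24 calls became 12 on mature tables only, 14 at 4-fold, 11 at 1000 RPM and 30 reads, and 14 without the DN4 library, an alternative added after the levels were seen; the other 11 settings gave 18 to 28. Over 206 pairs of a called ratio and a setting, 174 stayed past the rule, 30 no longer passed it and 2 turned round. Those 2 were miR-1937b from DN4 to DP under TMM, at a ratio of 1.11, and from DN3 to DN4 with sequences of 1 name only, at 0, because nearly all its reads are shared. The cause of the other changes was not tested.

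With 1 mismatch allowed, reads that ran up to 3 bases past an rRNA end were counted too. Shares of reads in another annotated RNA were then 95.2% for miR-2142, 55.6% for miR-1937b, 98.4% for miR-690, 100% for miR-709 and miR-1895, and 98.6% for miR-1928 in place of 6.85%. With each distinct sequence counted once they were 11.7%, 1.92%, 79.5%, 91.5%, 81.4% and 45.6% in the same order. With 3 bases past an rRNA end allowed but no mismatch, miR-2142 had 83.8%. The share at the commonest length became, over distinct sequences, 6.43% for miR-2142, 31.7% for miR-1937b, 10.7% for miR-690, 20% for miR-1895 and 16.6% for miR-1928. Without sequences read once it was 14.6% for miR-2142, 55.9% for miR-690 and 61% for miR-1895. DN4, with 74856 reads, is the shallowest library.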
